A study of Mus musculus with 419 samples.

Results

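Single embryonic stem cells were chosen by the level of 5 genes that the extracellular signal-regulated kinase (ERK) pathway is known to switch on in its own feedback, and the 105 cells with the highest score were set against the 105 with the lowest, out of 419 cells in all. The score summed Dusp6, Dusp4, Spry2, Spry4 and Etv4 over all their transcripts and both alleles, in parts per 1000000 of the cell's total (ppm), divided each gene by its mean over the 419 cells and averaged the 5 ratios. The other 209 cells lie between these 2 groups. All cells came from 1 group: female hybrid embryonic stem cells of the line F1-21.6, in which one chromosome set is from 129Sv and the other from Cast/EiJ (CAST), kept without feeder cells on laminin-511 in serum and LIF medium and collected in G1, the phase before DNA replication. No gene was altered and no agent was compared. RNA was profiled with RamDA-seq, which covers total RNA along whole transcripts and uses no molecular identifiers. The labels name 1 line and no separate cultures, so all cells count as 1 sample, and no p-value or standard error was made from cells. Binomial intervals on shares of cells, where given, cover counting error only and not differences between cultures. Differences are given with the spread between the 5 sequencing lanes in which the cells were read, which may be technical, and they describe these cells only.

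In embryonic stem cells, FGF4 made by the cells themselves acts on FGF receptors and, through RAS, RAF and MEK, activates ERK, which pushes cells from naive pluripotency, the ground state of the early epiblast, toward the formative state that precedes lineage commitment. LIF and serum BMP act to keep cells in the naive state. Active ERK also induces its own brakes: Dusp6 encodes a cytoplasmic phosphatase of ERK and Dusp4 a nuclear one, Spry2 and Spry4 encode Sprouty proteins that dampen signalling from receptors to RAS, and Etv4 encodes a PEA3-type ETS transcription factor. RNA of these genes is a common readout of the pathway, but ERK activity itself was not measured here.

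Promoter windows, from 250 bases before to 50 bases after an annotated start, are shown because ETS factors such as Etv4 bind a GGAA core: Dusp6 and Spry2 as score genes without and with a match, and Shc1 and Bmp4, which stood high in the high-score cells, because their windows hold one. They are from RefSeq on GRCm38.p6, 5′ to 3′ in the direction of the gene: Dusp6 at chr10:99262981-99263280 on the plus strand, Spry2 at chr14:105896770-105897069 on the minus strand, Shc1 at chr3:89418301-89418600 on the plus strand and Bmp4 at chr14:46390620-46390919 on the minus strand. Capitals mark the ETS letters CCGGAA, or TTCCGG where the match is on the opposite strand.
Dusp6: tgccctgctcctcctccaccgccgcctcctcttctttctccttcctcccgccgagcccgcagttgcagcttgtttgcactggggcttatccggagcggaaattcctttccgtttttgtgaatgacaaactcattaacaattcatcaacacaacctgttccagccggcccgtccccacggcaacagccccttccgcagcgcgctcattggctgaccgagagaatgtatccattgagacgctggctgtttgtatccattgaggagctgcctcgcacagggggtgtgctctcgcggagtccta
Spry2: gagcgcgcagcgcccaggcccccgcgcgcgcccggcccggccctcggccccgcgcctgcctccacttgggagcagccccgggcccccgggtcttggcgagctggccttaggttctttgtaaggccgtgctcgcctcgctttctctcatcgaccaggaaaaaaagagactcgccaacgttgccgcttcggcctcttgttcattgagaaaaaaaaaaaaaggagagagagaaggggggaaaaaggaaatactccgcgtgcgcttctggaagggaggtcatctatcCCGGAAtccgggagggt
Shc1: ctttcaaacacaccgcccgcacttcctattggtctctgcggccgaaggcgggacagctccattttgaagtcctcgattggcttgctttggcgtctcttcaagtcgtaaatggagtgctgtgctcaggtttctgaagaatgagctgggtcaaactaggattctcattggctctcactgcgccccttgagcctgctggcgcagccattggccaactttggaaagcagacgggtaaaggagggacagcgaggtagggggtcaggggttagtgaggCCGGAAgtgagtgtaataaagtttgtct
Bmp4: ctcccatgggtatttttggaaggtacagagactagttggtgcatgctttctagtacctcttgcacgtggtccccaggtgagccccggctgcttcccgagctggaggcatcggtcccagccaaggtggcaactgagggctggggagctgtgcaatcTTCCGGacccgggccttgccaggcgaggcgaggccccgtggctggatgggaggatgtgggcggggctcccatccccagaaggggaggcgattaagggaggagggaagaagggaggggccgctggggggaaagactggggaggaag
The Spry2, Shc1 and Bmp4 windows each hold 1 match to CCGGAA and the Dusp6 window holds none. The shorter GGAA core, or TTCC on the opposite strand, also occurs unmarked in each of these windows, that of Dusp6 included, and was not counted. No match was in the windows of Spred1, Etv5, Etv1, Spry1, Lef1, Axin2 and Gbx2, nor in the other window of Shc1, and of 12 other feedback and PEA3 genes with a sequence 1 had a match. On either strand, CCGGAA was present in 14.9% of 32851 promoter windows of the table. Counted by gene, with a match in any of its windows, it was present in 34.3% of 8079 measured genes with a sequence. The share of windows and the share of genes are unlike measures. Counted in the same way, it was present in 15.7% (27 of 172) of genes called higher in the high-score cells. It was present in 14.5% (32 of 220) of those called lower, by the rule given below. These shares describe letters in a window, not binding.

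Library measures differed little between the score groups. The median total of both allele tables was 933105 in the high-score and 924110 in the low-score cells, and the median number of genes above 0 was 13698 and 13724. Ribosomal RNA rows took a median of 15.3% of the total in the high-score and 15.4% in the low-score cells, and mitochondrial rows took 4.59% and 4.92%. Across the 419 cells, the Spearman correlation between the score and each of these 4 measures lay between -0.11 and 0.08. Each lane, of 80 to 88 cells, gave 16 to 27 high-score and 19 to 27 low-score cells. Pou5f1, which marks pluripotent cells, was above 0 in 100.0% of all cells. A subset of cells differed from the rest: 53 of 419 cells had more than 100 ppm of the keratin genes Krt7, Krt8 and Krt18 together. They made up 9 of the 105 high-score cells (8.57%, exact 95% binomial interval 3.99 to 15.6%) and 23 of the 105 low-score cells (21.9%, 14.4 to 31.03%), intervals that cover counting error only. A summed level of 9 core pluripotency genes under 50% of the median was found in 25 cells, of which 24 were keratin-high, and 13 of the 25 were low-score and 3 high-score cells. Values without the keratin-high cells, with new top and bottom groups of 92 cells each cut from the 366 that remain, are therefore given beside many, but not all, of the results they move. This limit was chosen after the data were seen.

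The score ran from 0, in 1 cell, to 3.97, with a median of 0.858. High-score cells had a median score of 1.68 and low-score cells one of 0.290. The last cell inside the high group scored 1.311 and the first outside it 1.307, while the highest low-score cell was at 0.526 and the next cell above it at 0.528, so the groups are cut from a continuous range and are not cell types. The cells were chosen by these values and by those of the 5 genes in the next paragraph, which are a description only.

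On mm10 coordinates of GENCODE vM21, Dusp6 lies at chr10:99263231-99267489, Dusp4 at chr8:34807297-34819894, Spry2 at chr14:105891947-105896819, Spry4 at chr18:38586247-38601415 and Etv4 at chr11:101769742-101785371. Etv4 had 12 transcript rows in the tables and each of the others had 1. Dusp6 ran from 9.55 to 553 ppm in the high-score cells, with a median of 63.4, and from 0 to 55.0 in the low-score cells, with a median of 8.22. Dusp4 ran from 2.15 to 186 (median 37.4) in the high-score and from 0 to 25.4 (median 2.10) in the low-score cells. Spry2 ran from 16.3 to 453 (median 104.0) and from 0 to 87.1 (median 20.3). Even for these genes the groups overlapped. Spry4 ran from 0 to 580 ppm (median 153) in the high-score and from 0 to 93.4 (median 6.77) in the low-score cells. Etv4 ran from 5.27 to 210 (median 90.3) and from 0 to 98.4 (median 20.3), and its level lay below its overall median in 28 high-score cells, against 11 to 15 cells for the other 4 genes. In the high group, 69 cells had at least 4 of the 5 genes above their own mean, 30 had all 5, and in 12 cells a single gene made up over 50% of the score. In the low group, 82 cells had none of the 5 above its mean and 55 had at least 1 of them at 0. Pairs of the 5 genes correlated across the 419 cells with Spearman coefficients of 0.36 to 0.58, highest for Spry2 with Spry4. All pairs were read from the same libraries and scaled by the same totals.

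**Figure D1:**
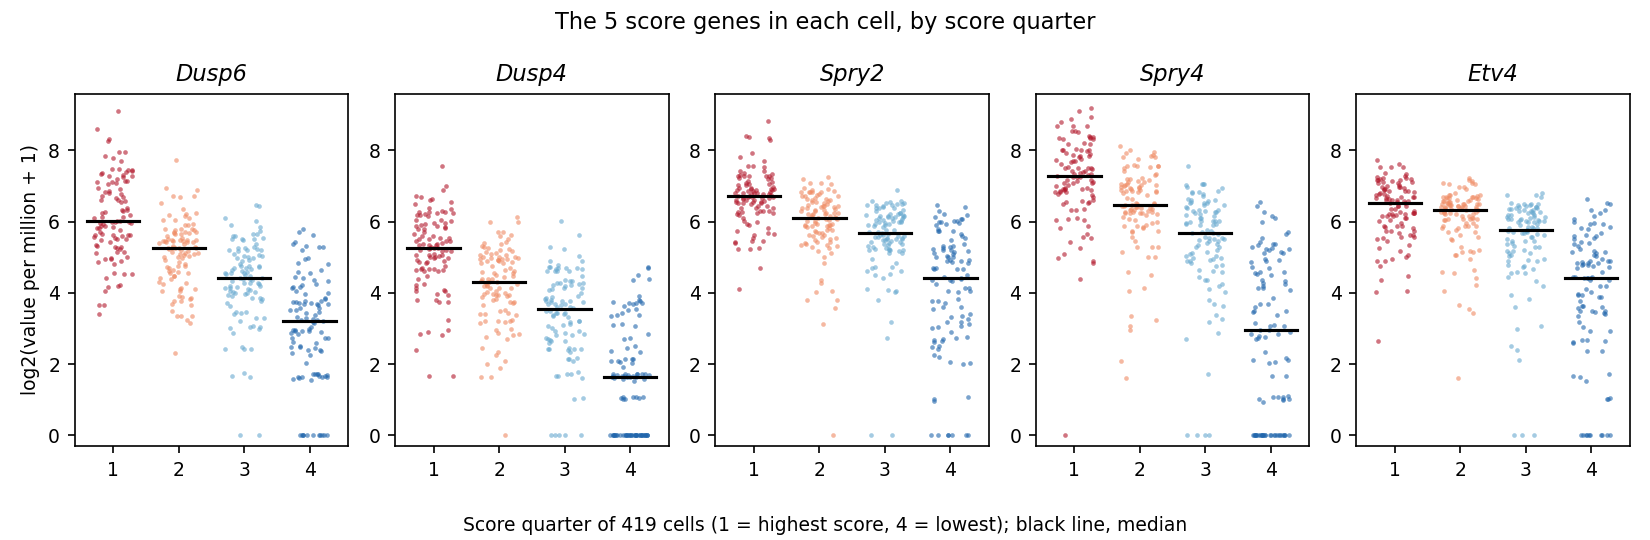
Levels of the 5 score genes in each of 419 cells, as log2(ppm + 1), by score bin from highest (1) to lowest (4); points are cells and black lines medians. Medians fall from bin 1 to bin 4 for all 5 genes, by the way the bins were made, and cells of neighbouring bins overlap.

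Each score gene was then left out of the score in turn and read between top and bottom groups of 105 cells cut on the other 4, so that its own level played no part in the choice of cells. All 5 were still higher in the high-score cells, and in each of the 5 lanes. Fold changes here and below are log2 ratios of group means after adding 1 ppm, with the range over lanes. Spry4 averaged 166 ± 122 ppm (SD over 105 cells) against 25.3 ± 35.0, a log2 fold of 2.67 (1.88 to 3.14 over lanes). Dusp6 averaged 75.3 ± 72.1 against 17.7 ± 27.1, a log2 fold of 2.03 (1.23 to 2.62), and Dusp4 34.9 ± 25.5 against 7.90 ± 12.3, one of 2.01 (1.43 to 2.64). Spry2 averaged 105 ± 65.7 against 32.2 ± 27.0, one of 1.67 (1.11 to 2.46). The factor gene Etv4 had the smallest difference, with 80.6 ± 44.7 against 34.3 ± 30.3 and a log2 fold of 1.21 (0.67 to 1.56). The cells of each pair of groups overlapped in every gene. With Dusp6, Dusp4, Spry2, Spry4 or Etv4 left out, 2.15%, 2.29%, 2.16%, 2.16% and 2.05% of the other measured genes passed the rule for higher genes given below, and 4.72%, 3.95%, 1.77%, 1.59% and 2.02% that for lower genes.

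The 2 alleles gave a second reading on cells chosen without the values read. When the score used 129 values and the CAST values were read, the log2 folds were 1.78 for Dusp6 (1.64 to 1.99 over lanes), 2.38 for Dusp4 (1.84 to 3.39), 1.13 for Spry2 (0.41 to 1.59), 2.19 for Spry4 (1.80 to 2.56) and 1.21 for Etv4 (0.86 to 1.58). In the same cut 1.53% of 10661 genes were called higher and 1.24% lower. With the alleles exchanged, the 129 values gave 2.00 for Dusp6, 1.80 for Dusp4, 1.44 for Spry2, 2.44 for Spry4 and 1.33 for Etv4, where 1.68% of 10142 genes were called higher and 2.14% lower. The allele scores shared 57 of their 105 high cells and 62 of their 105 low cells, while 5 cells were high by 129 and low by CAST and 1 was the reverse. In some rows reads without a strain variant may be split evenly between the tables, which would make the alleles less than independent: the share of cells whose 2 alleles lay within 10% of their sum is given below where it is high.

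Across 10673 other measured genes (mean of at least 5 ppm and above 0 in at least 20% of cells), a gene was called when its fold was at least 1.5 and its direction was the same in all 5 lanes. By this rule 2.31% of the measured genes were higher in the high-score cells, and 290 genes, 2.72%, were lower. Without the condition on lanes these shares were 2.79% and 4.15%. The median log2 fold over all measured genes was -0.03. The median size of the log2 fold was 0.86 among genes called higher and 0.76 among those called lower, and 85 and 83 of them reached a fold of 2 (0.796% and 0.778% of measured genes). Between the high-score and low-score cells, the single-cell values of every called gene overlapped. Over the 4 score bins of 104 or 105 cells, the mean moved in one order for 74.1% of the higher and 57.6% of the lower genes. The call already fixed the direction between the highest and lowest bins, and this share was not computed over all measured genes. Of the called genes, picked by their summed-allele fold, 53.0% of the higher and 29.7% of the lower ones were called again in the same direction when CAST values were read on the 129 score. With the alleles exchanged these shares were 54.7% and 43.8%, and no gene was called in the opposite direction in either reading.

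**Figure D2:**
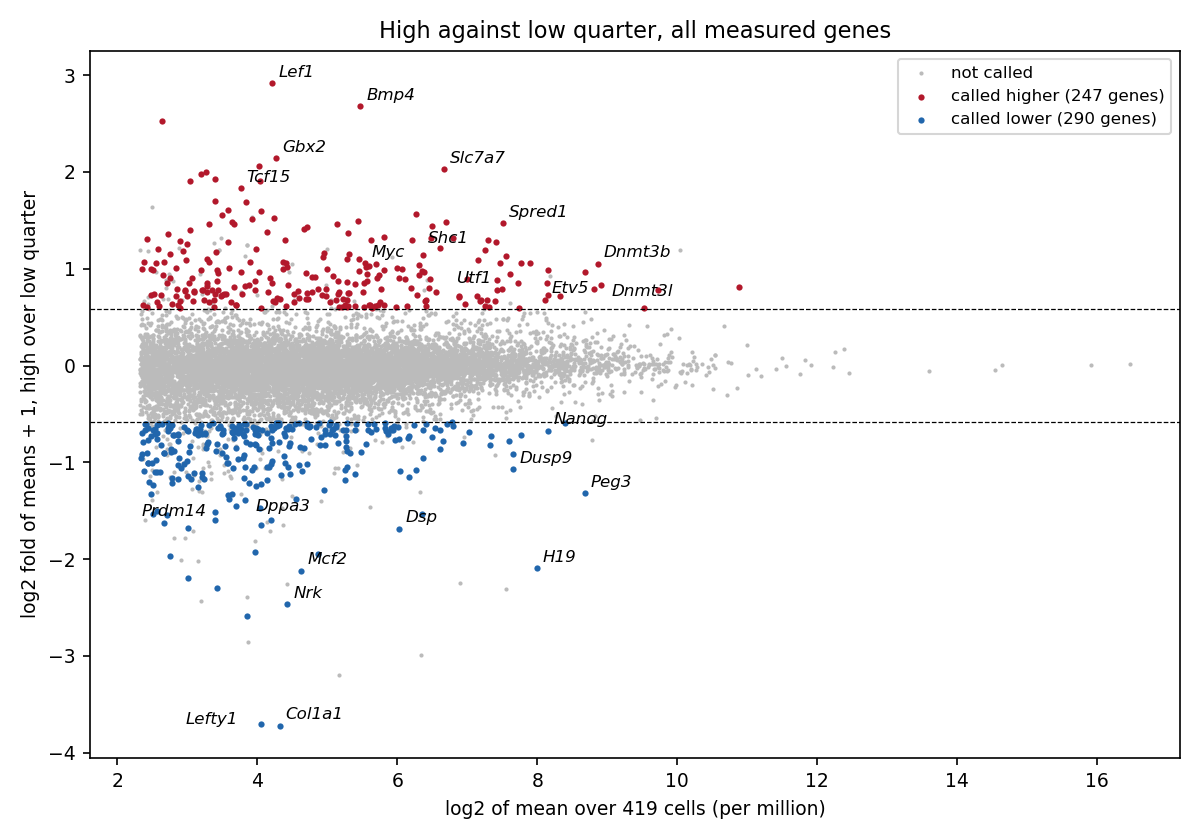
Mean level over 419 cells (log2 ppm) against the log2 fold of means + 1, high-score over low-score cells, for 10673 measured genes; red and blue points are called genes and dashed lines mark a fold of 1.5. Called genes lie on both sides of a mass of genes near 0, 85 of them at least 2-fold higher and 83 at least 2-fold lower, with Lef1 (2.92) and Bmp4 (2.68) at the upper and Lefty1 (-3.71) and Col1a1 (-3.72) at the lower end.

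The other feedback inhibitors and PEA3 factors, were not used by the score. Of 15 listed genes 14 were measured, 4 were called higher, 1 lower and 9 in neither direction, and the median log2 fold was 0.32, against -0.03 over all measured genes. Calls in this and every later list stand beside 2.31% higher and 2.72% lower over all measured genes. Spred1, a membrane protein that brings neurofibromin to RAS and so restrains it, ran from 23.7 to 602 ppm (median 238) in the high-score and from 0 to 292 (median 84.9) in the low-score cells. Its mean was 257 ± 126 against 92.3 ± 62.6, a log2 fold of 1.47 (1.17 to 1.80 over lanes), and the groups overlapped. Both other PEA3 factors were higher: Etv1 averaged 36.2 ± 18.9 against 16.1 ± 18.2 ppm (log2 fold 1.12, 0.75 to 2.17) and Etv5 318 ± 97.2 against 198.3 ± 148 (0.68, 0.28 to 0.98). The Sprouty gene Spry1 averaged 14.8 ± 12.3 against 9.29 ± 7.89 (0.62, 0.27 to 0.81). Without the keratin-high cells the log2 folds of Etv5 and Spry1 were 0.40 and 0.49, below the fold of 1.5.

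Dusp9, another cytoplasmic ERK phosphatase, went the opposite way. It ran from 6.59 to 728 ppm (median 139) in the high-score and from 37.6 to 1425 (median 229.4) in the low-score cells, with a log2 fold of -1.07 (-1.38 to -0.40 over lanes). Its mean was 149, 163, 182 and 313 ppm in the 4 bins from highest to lowest score, so the largest step lay before the lowest bin. Without the keratin-high cells its log2 fold was -0.64. The remaining 9 measured genes were not called. Their log2 folds were 0.75 for Phlda1, 0.44 for Spred2, 0.35 for the receptor antagonist Il17rd, 0.30 for Dusp5, 0.27 for Spred3, 0.14 for Dusp7, -0.10 for Lrig1, -0.67 for Errfi1 and -1.17 for Dusp14. Spred2 came nearest to one direction in all lanes, with -0.01 to 0.66. Spry3 was listed at a mean of 0.

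The pathway's own components showed little difference. Of 26 measured RAS, RAF, MEK and ERK core genes 1 was called higher, 0 were called lower, and the median log2 fold was -0.02. Adapter gene Shc1, whose protein links activated receptors to GRB2 and RAS, was that gene. It ran from 76.3 to 595 ppm (median 191.6) in the high-score and from 14.2 to 201.1 (median 84.4) in the low-score cells, with means of 199 ± 83.5 and 92.5 ± 36.2 and a log2 fold of 1.09 (0.73 to 1.29 over lanes). Mapk3, which encodes the kinase ERK1, averaged 16.3 ± 7.42 against 18.8 ± 9.98 (-0.20, -0.53 to 0.11).

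Among the MEK genes, the log2 fold of Map2k1 was -0.30 (-0.46 to -0.15 over lanes) and that of Map2k2 0.02. The RAF genes stood at 0.21 for Braf (0.11 to 0.38) and -0.20 for Araf. The RAS genes Nras and Hras had log2 folds of -0.05 and -0.17, and the related Rras2 and Mras 0.29 and -0.35. Of the exchange factors and adapters, Sos1 was at -0.17, Sos2 at -0.31, Gab1 at -0.02, Grb2 at 0.15 and the phosphatase gene Ptpn11 at -0.09. The scaffold gene Ksr1 had the lowest value, -0.55. Both RAS-inactivating genes were flat, with Nf1 at 0.00 and Rasa1 at 0.07. The downstream kinase genes Rps6ka1, Rps6ka2 and Rps6ka3 were at 0.19, 0.33 and -0.02, Shoc2 at 0.10 and the RAF inhibitor gene Pebp1 at 0.09. Grb2 and Pebp1 had alleles within 10% of their sum in 100.0% of cells. Gab2 and Ksr2 were too low to be measured.

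Ligands and receptors at the top of the pathway showed few differences that held in all lanes. Of 9 measured FGF ligand, receptor and adapter genes 0 were called higher and 1 was called lower, and the median log2 fold was -0.27. Fgf4, the ligand that the cells make themselves, ran from 0 to 738 ppm (median 73.9) in the high-score and from 0 to 430 (median 115) in the low-score cells. Its log2 fold was -0.40, with -0.86 to 0.14 over lanes. The receptor genes Fgfr1, Fgfr2 and Fgfr3 had log2 folds of -0.30, -0.27 and 0.73, none of one sign in all lanes. Frs2, which couples FGF receptors to GRB2, was the called gene: 48.1 ± 35.8 against 79.1 ± 66.1 ppm, a log2 fold of -0.71 (-1.27 to -0.08), and -0.52 without the keratin-high cells. Of the others, Fgfbp1 stood at 1.05 (-0.11 to 2.51), Fgf17 at 0.19, Klb at -0.18 and Fgfrl1 at -0.50 (-0.84 to -0.18). Fgf5, a ligand of the formative epiblast, averaged 1.92 ppm in the high-score and 0.18 in the low-score cells and was not measured by the rule.

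Immediate early genes, which ERK also induces within minutes and whose RNA decays fast, were called in both directions. Of 25 listed genes 16 were measured, 1 was called higher and 2 lower, and the median log2 fold was -0.02, or 0.41 without the keratin-high cells. Myc, the growth-promoting transcription factor, ran from 2.33 to 194.2 ppm (median 56.3) in the high-score and from 0 to 150 (median 21.4) in the low-score cells, a log2 fold of 1.06 (0.86 to 1.34 over lanes). Jun and Jund, subunits of AP-1, were lower: Jun averaged 9.63 ± 13.9 against 22.8 ± 42.9 ppm (-1.16, -1.91 to -0.45) and Jund 10.95 ± 7.74 against 17.3 ± 13.9 (-0.62, -1.002 to -0.27). Without the keratin-high cells these were -0.37 and -0.31. Egr1, often used as an ERK readout, had a log2 fold of 1.53 but was not called, because 1 or more lanes went the opposite way (-0.42 to 2.71), and 21.7% of its sum lay in 4 cells. Fosl2 was at -1.09 (-2.43 to 1.61). Egr2, Egr3 and Dusp2 had means under 1 ppm.

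Formative and naive pluripotency genes were listed separately. Of 13 measured formative and primed genes 7 were called higher and 0 lower, with a median log2 fold of 0.77. Over all measured genes 2.31% were called higher and 2.72% lower. The list was chosen with earlier results of these data known, and it shares Dnmt3a, Dnmt3b and Lef1 with lists given further below. Lef1, a Wnt-pathway transcription factor, had a mean of 34.7 ± 72.8 ppm in the high-score and 3.71 ± 9.21 in the low-score cells, a log2 fold of 2.92 (1.94 to 4.27 over lanes). Its medians were only 4.28 and 1.04 and its highest cells were at 502 and 73.4, and 19.7% of its sum over all cells lay in 4 cells. Tcf15, a basic helix-loop-helix factor of cells primed to leave the naive state, had medians of 19.0 and 2.27 and a log2 fold of 1.84 (1.13 to 2.50), with alleles alike in 97.7% of cells. Pim2, a kinase gene, stood at 1.41, and the de novo DNA methyltransferase genes Dnmt3b and Dnmt3a at 1.05 and 0.72. The epiblast factors Pou3f1 (Oct6) and Otx2 were at 0.82 and 0.77, and Otx2 had medians of only 3.22 and 0 ppm and a log2 fold of 0.57, below the fold of 1.5, without the keratin-high cells. Dnmt3a, Pou3f1 and Otx2 fall outside the naming rule and were named after their values were seen. Zic2 at -0.75 and Sox4 at -0.25 had the lowest values and were not called.

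All 18 naive pluripotency genes were measured. In the high-score cells 4 were called lower and 1 higher, and the median log2 fold was -0.08, or -0.27 without the keratin-high cells. Of the 18 genes 7 lay lower and 1 higher in all 5 lanes, beside 1552 lower and 1022 higher of 10673 measured genes. Dppa3, a germline and early-embryo factor, had medians of 2.20 in the high-score and 10.5 in the low-score cells and a log2 fold of -1.39 (-1.93 to -0.71 over lanes). Prdm14, which represses FGF receptor and DNA methyltransferase genes in naive cells, had medians of 2.12 and 10.6 and a log2 fold of -1.38 (-1.69 to -1.35). Nanog ran from 0 to 1046 ppm (median 189) in the high-score and from 0 to 1127 (median 350) in the low-score cells, a log2 fold of -0.67 (-1.01 to -0.36), and Tcl1 stood at -0.85. Nanog and Tcl1 were named after their values were seen. Without the keratin-high cells all 4 were at least as far below 0 or within 0.1 of it, at -1.30 for Dppa3, -1.52 for Prdm14, -0.87 for Nanog and -1.04 for Tcl1. The other naive genes were not called. Among them Klf2 at -0.38 (-0.61 to -0.25 over lanes), Tfcp2l1 at -0.30 (-0.34 to -0.26) and Dppa5a at -0.22 (-0.54 to -0.01) lay lower in every lane. Lanes went both ways for Esrrb at 0.19 (-0.18 to 0.85) and Nr0b1 at 0.54 (-0.59 to 1.22), and Zfp42 was at 0.05, Tbx3 at -0.12 and Klf4 at -0.13. Gbx2, grouped with the naive genes because it sustains self-renewal downstream of LIF, was the exception: medians of 26.3 and 3.13 ppm and a log2 fold of 2.14 (1.21 to 2.64).

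Core pluripotency genes were as high or higher in the high-score cells. Of 9 measured genes 2 were called higher and 0 lower, with a median log2 fold of 0.35, or 0.14 without the keratin-high cells. One of them was Utf1, which averaged 215.5 ± 66.1 against 124 ± 64.7 (0.79, 0.49 to 1.19). Pou5f1 and Sox2 were at 0.31 and 0.35 and were not called. The summed level of the 9 genes ran from 757 to 2684 ppm (median 1858) in the high-score and from 78.3 to 2509 (median 1577) in the low-score cells.

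**Figure D3:**
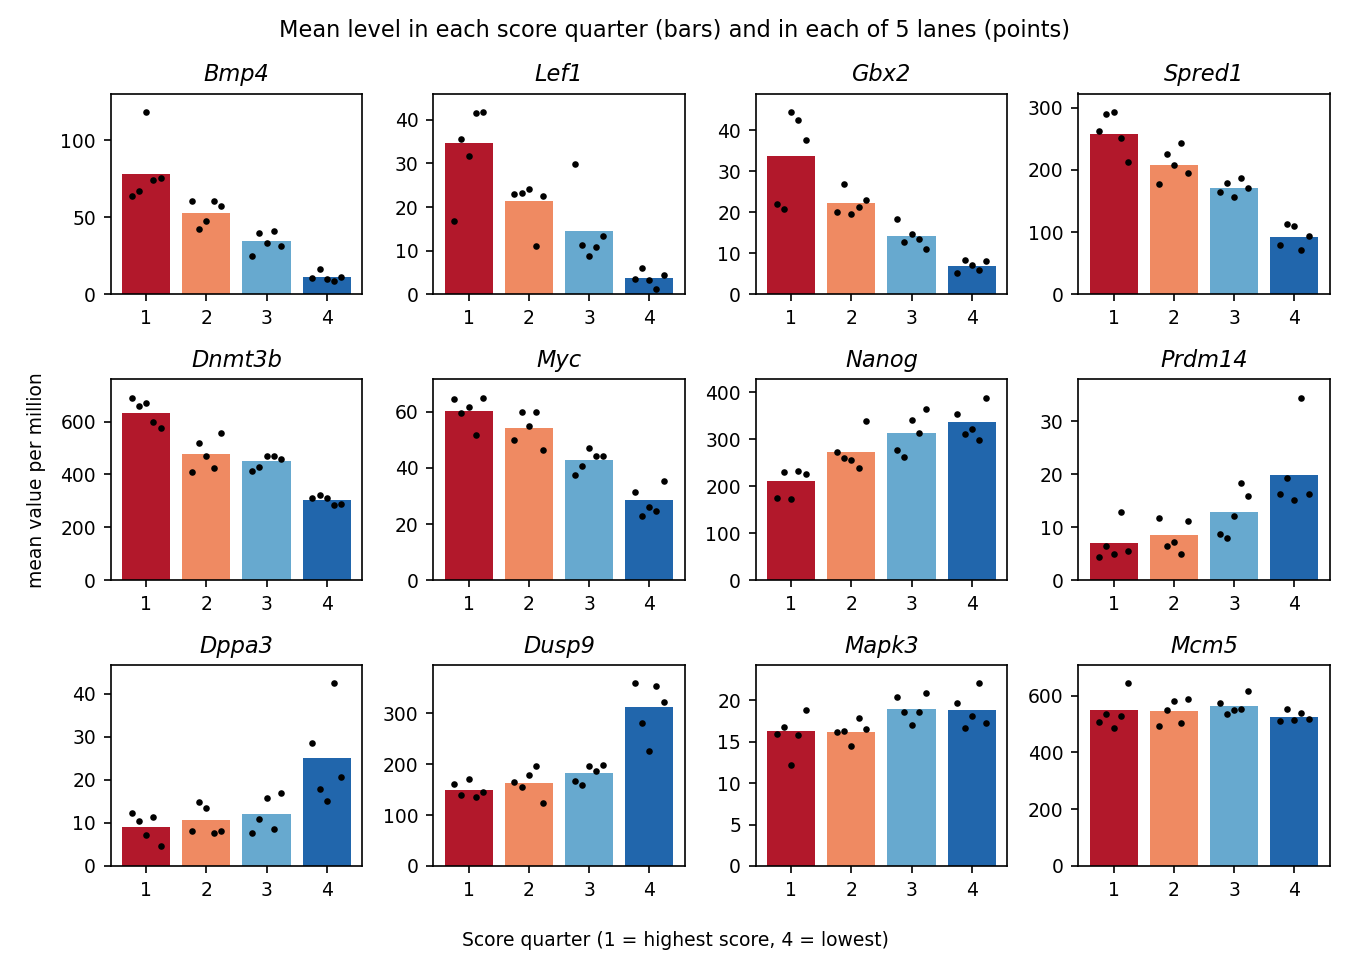
Mean level (ppm) of 12 genes in the 4 score bins from highest (1) to lowest (4); bars are means over the 104 or 105 cells of a bin and points the means within each of 5 sequencing lanes. Bmp4, Lef1, Gbx2, Spred1, Dnmt3b and Myc step down across the bins, Nanog and Prdm14 step up, Dppa3 and Dusp9 stand out mainly in bin 4, and Mapk3 and Mcm5 differ little.

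Among the DNA methylation genes, all 3 de novo methylation genes were called higher and the median log2 fold over 8 measured writers and erasers was 0.21. Dnmt3b ran from 74.4 to 1508 ppm (median 598) in the high-score and from 2.03 to 1146 (median 239) in the low-score cells, and its log2 fold was 1.05 with the narrow range of 1.00 to 1.14 over lanes. Dnmt3l, the catalytically inactive partner, averaged 564 ± 303 against 317 ± 233 (0.83, 0.54 to 1.00). The maintenance genes were not called, with Dnmt1 at -0.16 and Uhrf1 at 0.00, nor were the demethylases, with Tet1 at 0.41, Tet2 at -0.03 and Tet3 at -0.19. Of 12 measured Polycomb genes 2 were called higher, Kdm2b at 0.67 (0.24 to 1.01) and Jarid2 at 0.59 (0.44 to 0.94), both encoding proteins that bring Polycomb complexes to chromatin. The enzyme gene Ezh1 was at -0.18 and Phf19 at -0.39. Jarid2 was at 0.42 without the keratin-high cells, below the fold of 1.5.

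Other signalling pathways of these cells were touched in part. In the LIF, JAK and STAT3 list 3 of 11 measured genes were called higher, 0 lower, and the median log2 fold was 0.20. They were the feedback inhibitors Socs3, with 63.4 ± 40.3 against 32.5 ± 26.4 ppm (0.94, 0.21 to 1.54 over lanes), and Socs2, with 87.7 ± 42.7 against 46.9 ± 34.5 (0.89, 0.41 to 1.22), and the target Bcl3 at 0.71. Stat3, Jak1 and Il6st were at 0.03, 0.04 and 0.05, named after their values were seen, and Lifr was at 0.31, and Lif stood at -0.82 (-1.45 to 1.09). Of 12 measured BMP and Nodal targets 2 were called higher and 2 lower. Smad7, an inhibitor of both pathways, averaged 100.0 ± 61.8 against 59.9 ± 44.2 (0.73, 0.61 to 1.02), and the Nodal coreceptor Tdgf1 385 ± 180 against 233 ± 160.9 (0.72, 0.32 to 1.098). Tdgf1 was at 0.49 without the keratin-high cells and Bcl3 at 0.58, both below the fold of 1.5. Id2, an inhibitor of basic helix-loop-helix factors, was lower at -0.81 (-1.28 to -0.06), while Id1 and Id3 stood at 0.55 and -0.26. Lefty1, an inhibitor of Nodal, had medians of 0 in both groups, and 49.5% of its sum over all cells lay in 4 cells, beside a log2 fold of -3.71. In the Wnt list 2 of 5 measured genes were called higher, Lef1 and the feedback gene Axin2, whose means were 12.3 ± 16.3 and 4.48 ± 6.44 (1.28, 0.88 to 1.79). Tcf7 and Znrf3 were at 0.08 and -0.03. The median of the Wnt list was 0.08, or 0.61 without the keratin-high cells.

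Outside the lists, the highest fold, of genes averaging 20 ppm or more, was that of Bmp4, the BMP ligand that embryonic stem cells and epiblast produce. Bmp4 ran from 0 to 382 ppm (median 62.0) in the high-score and from 0 to 107 (median 3.04) in the low-score cells, with means of 78.1 ± 75.4 and 11.4 ± 19.5. Its log2 fold was 2.68 (1.96 to 3.42 over lanes), 2.21 without the keratin-high cells, and 2.17 and 2.01 in the 2 allele readings. Its mean was 78.1, 53.1, 34.5 and 11.4 in the 4 bins from highest to lowest score. Slc7a7, the light chain of a cationic amino acid exchanger, had medians of 159.9 and 34.3 ppm and a log2 fold of 2.03 (1.66 to 2.60). Across all 419 cells the score and Slc7a7 had a Spearman correlation of 0.60, against 0.58 for Spred1, 0.48 for Gbx2, 0.47 for Bmp4, -0.32 for Dusp9 and -0.20 for Nanog, all read from the same libraries as the score. These genes had been called by their fold between the ends of the same score, so the signs were largely set beforehand. The correlations are a description only and were not computed over all measured genes.

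The other genes of this group of 12, besides Spred1 and Pim2, have varied roles. The semaphorin and VEGF coreceptor Nrp2 had medians of 107.6 and 32.1 ppm and a log2 fold of 1.49 (0.96 to 2.23 over lanes). The nucleotide-cleaving surface enzyme Enpp3 was at 1.47 (1.18 to 2.14) and the membrane-bound transcription factor Myrf at 1.44 (1.06 to 1.93). Naprt, an enzyme of NAD synthesis, was at 1.43 and the retinoic acid receptor Rarg at 1.33. The pyruvate dehydrogenase kinase Pdk1, which diverts pyruvate from mitochondria, averaged 122 ± 76.3 against 48.1 ± 35.6 ppm (1.32, 1.08 to 1.396), and Pdzd2 stood at 1.37. Of these 12 genes, all kept a log2 fold of at least 1.16 without the keratin-high cells.

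Genes with the lowest values fell into those that stayed low without the keratin-high cells and those that did not. Mcf2, an X-linked guanine nucleotide exchange factor, had medians of 3.32 and 16.2 ppm, a log2 fold of -2.12 (-2.58 to -1.74 over lanes) and one of -2.40 without those cells. Calcoco2, an autophagy receptor, had medians of 6.92 and 73.8 and log2 folds of -1.53 and -1.77. The desmosome gene Dsp went from -1.68 to -1.25, the ion transport regulator Fxyd6 from -1.18 to -0.93 and the polyol enzyme Sord from -1.13 to -1.32. By contrast Nrk, a kinase gene of the placenta, had a log2 fold of -2.46, with 44.6% of its sum in 4 cells, and -0.42 without them. The imprinted growth-limiting RNA H19 had a log2 fold of -2.09, with 41.2% of its sum in 4 cells and medians of 25.5 in the high-score and 19.5 in the low-score cells, and stood at 0.84 without the keratin-high cells. Rhox9, a homeobox gene of germ cells and placenta, was at -1.38 and then at 0.17. The imprinted Peg3 was at -1.32 (-1.53 to -0.50) and then at -0.69. Ahnak2, Rab15 and the receptor gene Notch3 were at -1.95, -1.29 and -1.15, and at -0.73, -0.69 and -0.72 without those cells.

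**Figure D4:**
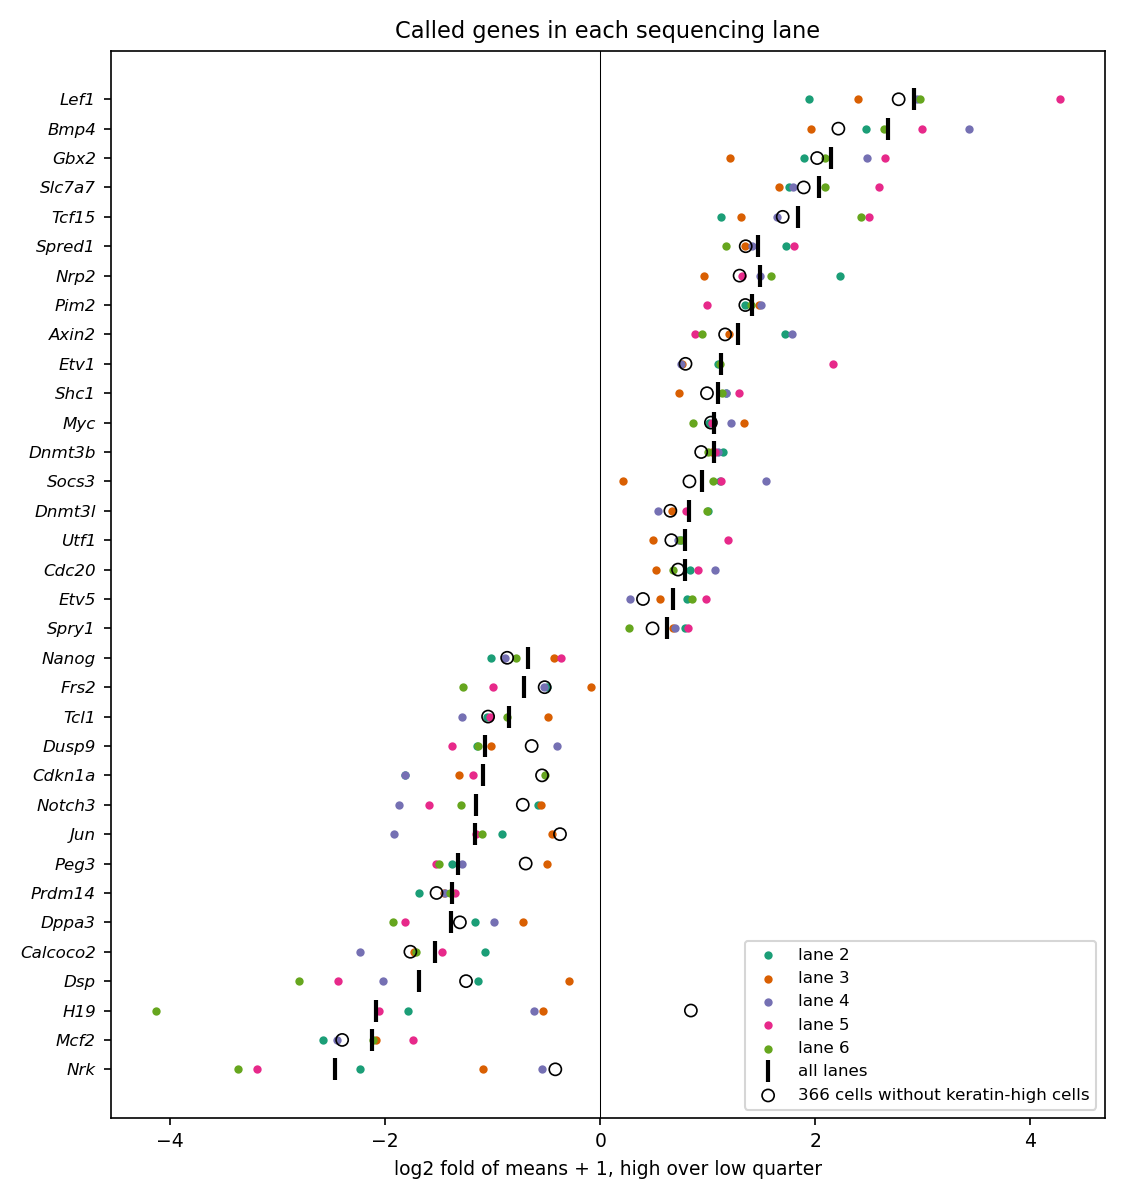
Log2 fold of means + 1, high-score over low-score cells, of 34 called genes: coloured points are the 5 sequencing lanes, black ticks all lanes, and open circles new top and bottom groups of 92 from the 366 cells without keratin-high cells. All lanes lie on one side of 0, as the call requires, and the open circles stay near the ticks for Bmp4, Gbx2, Spred1, Prdm14 and Mcf2 but move for H19 and Nrk.

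Over all measured genes, the new groups without the keratin-high cells gave 2.50% called higher and 1.91% called lower. Of the genes called with all cells, 72.5% of the higher and 49.0% of the lower ones were called again, and 1 gene was called in opposite directions. Markers of other cell types were read as whole lists. Of 7 measured trophectoderm markers 1 was called higher, the transcription factor Tead4 at 0.88 (0.62 to 1.497 over lanes), and the median was -0.51, or 0.15 without the keratin-high cells. The list holds the keratins that define those cells, so this shift is not independent of how they were chosen. Krt7, Krt8 and Krt18 had log2 folds of -2.86, -2.31 and -2.25 and were not called, since lanes differed in sign, and the defining factor Cdx2 had a mean under 1 ppm. The summed trophectoderm list ran from 19.1 to 8755 ppm (median 141) in the high-score and from 26.3 to 15431 (median 140) in the low-score cells. The groups' medians were thus alike, while their means were 284 and 865. Krt18 is named beside the keratin rule, after its value was seen.

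Of 9 measured primitive endoderm markers 1 was called higher, Sox7 at 0.98 (0.07 to 2.00 over lanes, medians 4.29 and 0), or 0.48 without the keratin-high cells, and the list's median was -0.29, or -0.07 without them. Their defining factors Gata6 and Sox17 had means under 1 ppm, and the summed list had medians of 1146 in the high-score and 1273 in the low-score cells, with ranges of 325 to 5633 and 508 to 6553. Of 5 measured fibroblast markers Col1a1 was called lower, with medians of 0 in both groups and 69.7% of its sum in 4 cells, beside a log2 fold of -3.72. The list's median log2 fold was -1.46, or 0.64 without the keratin-high cells. The fibroblast genes Dcn and Lum had means under 1 ppm, and the summed list had medians of 205 and 120 with ranges of 15.2 to 2322 and 1.13 to 12454. Vim was at 0.64 and not called. Only Eomes of 10 mesendoderm markers was measured, at 0.69 (-0.26 to 1.56), with list medians of 11.5 and 5.99 ppm. Of 9 neural markers Map2, Nes and Tubb3 were measured, at 0.45, 0.34 and -1.40, and none was called. The summed two-cell-embryo markers had a median of 0 in both groups and a highest cell of 984 in the high-score and 27.8 in the low-score cells. Keratin-high cells were left out above to show their part in the differences, and that of other marker-positive cells was not tested.

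Growth, cell cycle and housekeeping lists showed few or no calls. Of 14 mitotic genes 1 was called higher, Cdc20, an activator of the anaphase-promoting complex, with 576 ± 264 against 333 ± 125 ppm and a log2 fold of 0.79 (0.51 to 1.06 over lanes). Other mitotic genes such as Plk1 at 0.19 and Top2a at -0.17 were near 0, and the list's median was 0.09. All 17 DNA replication genes were uncalled, with a median of 0.01. Of 13 G1 cyclins and inhibitors 1 was called lower, the inhibitor Cdkn1a, which p53 also induces, with 18.1 ± 24.1 against 39.5 ± 54.0 (-1.09, -1.82 to -0.51), and -0.54 without the keratin-high cells. Ccne1 and Cdk6 stood at 0.50 and 0.78 and were not called. In the p53 list 6 of 13 genes lay lower in all 5 lanes, beside 1552 of 10673 measured genes. Of the 6 Cdkn1a passed the fold, and the list's median was -0.35, or -0.22 without the keratin-high cells. Among 15 glycolysis genes Hk1 was called lower at -0.71, or -0.21 without the keratin-high cells, while Pfkp and Hk2 stood at 0.48 and 0.42, and the median was 0.11. Of 11 integrated stress response genes Ddit4 was called lower at -0.67, or -0.39 without the keratin-high cells. Among 14 basement membrane and integrin genes Nid1 was called lower at -0.69 (-0.57 without the keratin-high cells) and Nid2 stood at 0.44 (0.33 to 0.53). The median of that list was -0.25, or 0.20 without the keratin-high cells.

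None of 14 cholesterol synthesis, 9 heat shock, 19 AKT and mTOR, 14 SRF and YAP cytoskeletal, 81 cytosolic ribosomal protein, 12 mitochondrial mRNA and 35 proteasome genes was called. Their medians were -0.13, 0.02, -0.01, -0.53, -0.02, -0.09 and -0.01, and that of the SRF and YAP list was 0.21 without the keratin-high cells. Within the AKT list Foxo1 stood at 0.58 (0.32 to 0.78 over lanes), just under the fold of 1.5, and Foxo3 at -0.48 (-0.99 to -0.33). The median log2 fold per autosome ran from -0.06 to 0.04, and that of the X chromosome, which holds Dusp9, was -0.08. Of 403 measured X genes 9 were called higher and 19 lower. Chromosome 12, also with 403 genes, had 22 called higher and 11 lower. These counts stand beside 2.31% higher and 2.72% lower over all measured genes. X-chromosome dosage was not tested.

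**Figure D5:**
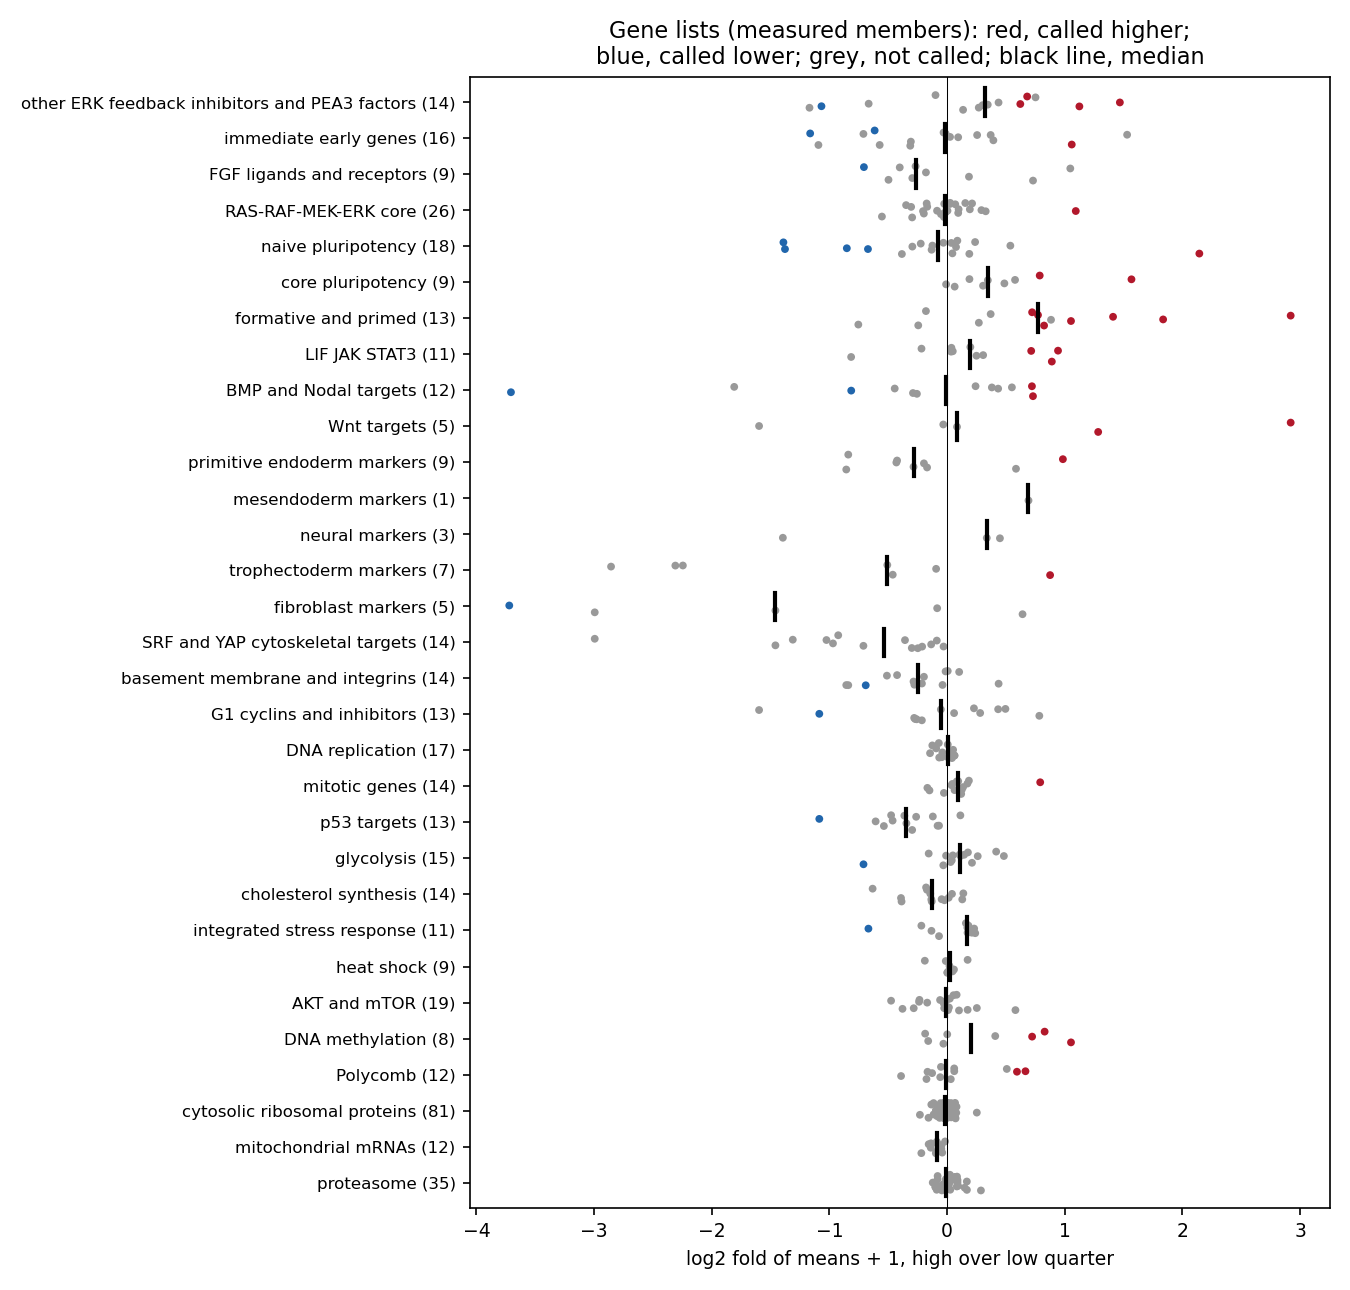
Log2 fold of means + 1, high-score over low-score cells, of the measured members of 31 gene lists; each point is a gene, red and blue points are called higher and lower, and black lines are list medians. The formative list has the most calls in one direction, 7 of 13 higher, beside 2.31% of all measured genes. Ribosomal, proteasome and DNA replication genes lie close to 0.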

How the data were processed

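RamDA-seq values of 419 cells were deposited by the authors as 2 allele tables of 117762 transcripts. Bowtie 1.1.2 and mm10 are named, without role, in the submitters' processing notes; no source read here says how reads were assigned to alleles. The authors' deposited whole numbers are treated as a score, estimated reads of each allele that appear to have been scaled, because totals per cell are closer together than is usual for raw reads; no source read here gives the scaling. No count test was used, and depth in reads is unknown. Rows were summed per gene through GENCODE vM21 (116919 rows matched, the rest holding 0.36% of values) over both tables, in ppm. No cell was removed and no doublet caller was run; no 2 cells were identical.

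The members and lists were chosen with earlier results of these data known. Named genes are the 12 largest and 12 smallest called log2 folds (mean of at least 20 ppm, no predicted symbols), all members of the ERK feedback, FGF and RAS core lists, and the 2 highest and 2 lowest of other lists; any other gene was named after its values were seen. Python 3.11.15, numpy 2.4.6, pandas 2.3.3, scipy 1.17.1 and matplotlib 3.10.9 were used. The comparison was tested on simulated data. A few members of the lists are counted but not reported by name here.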

Additional observations from a re-analysis of the deposited data

How the results depend on the processing

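Of 30 alternatives, the fold of 2 and the dropped lane condition leave the fold values of single genes unchanged. Over the others, 1512 of 1515 values of 55 called named genes kept their direction. The exceptions were H19 (0.84) and Rhox9 (0.17) without keratin-high cells, and Col1a1 (0.34) when CAST values were read on the 129 score. These genes were picked by their fold and direction in the same cells, which most alternatives read again. Their kept direction is therefore a description only. Against 2.31% of genes higher and 290 genes lower, the counts of higher and lower genes were 405 and 594 (3.79% and 5.57%) for the top and bottom 10% of cells. They were 378 and 509 with a mean of at least 0.5 ppm (2.18% and 2.94% of 17310 genes). With a mean of at least 20 they were 140 and 112 (2.13% and 1.70% of 6572). These mean limits changed the number of genes measured, and the share of higher genes stayed near 2.31%. CAST values on the 129 score gave 163 and 132 (1.53% and 1.24%), and a fold of 2 gave 85 and 83. The lower count alone moved to 167 with 5 ppm added, 181 for the top and bottom 33.3%, 520 for a score of log2 values, 149 in cells with a 129 share under 35% on distal chromosome 12, 443 without the lane condition, 504, 189 and 170 with Dusp6, Spry2 or Spry4 out of the score, and 187 without cells low in core pluripotency genes. Leaving out a lane gave 240 to 297 higher and 275 to 453 lower genes, the 453 without lane 3. The causes were not tested. The median log2 fold of the other feedback genes was lowest, at 0.13, for the score of log2 values. It was 0.18 when 129 values were read on the CAST score. For the 10% groups, the median log2 fold of the other feedback genes was 0.67 (0.32 for groups of 105; 0.27 to 0.46 without single lanes), that of the left-out score genes 3.10 (2.01; 1.86 to 2.02) and that of CAST values 3.02 (1.78; 1.68 to 1.86). The last was 1.88 and 1.46 with 0.1 and 5 ppm added, 1.60 for 33.3% groups, 1.62 for the log2 score, 1.68 with values limited at the 99th percentile, 1.52 without keratin-high cells and 1.62 without cells low in core genes. No paired analysis was possible because the labels give 1 group. The last 2 exclusions were chosen after the data were seen.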

Other observations

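The genes in these paragraphs were named after their values were seen, and no list stands behind them. Several imprinted genes differed between the score groups. On distal chromosome 12, the maternally expressed RNAs Meg3, Rian and Mirg and the paternally expressed Rtl1 and Dlk1 were called higher in the high-score cells, with log2 folds of 0.78, 0.81, 0.95, 0.85 and 0.74, while Dio3 of the same cluster was called lower at -1.18. Rian ran from 413 to 6202 ppm (median 2150) in the high-score and from 18.3 to 5734 (median 1027) in the low-score cells. A low 129 share on this part of chromosome 12, under 35%, was found in 79 of 105 high-score (75.2%, exact 95% binomial interval 65.9 to 83.1%) and 64 of 105 low-score cells (60.95%, 50.9 to 70.3%). These intervals cover counting error only. In groups of 74 cells cut from the 295 cells with that share, Meg3, Rian, Mirg, Rtl1 and Dlk1 stood at 0.48, 0.51, 0.64, 0.52 and 0.72 and Dio3 at -1.19. Meg3, Rian and Rtl1 were then below the fold of 1.5, and Mirg had no single direction over lanes (-0.01 to 1.21). Elsewhere, Mest, a paternally expressed hydrolase-like gene, had medians of 226 and 108.3 ppm and a log2 fold of 1.06 (0.84 to 1.52 over lanes), and the growth factor receptor-binding gene Grb10 was at 0.93, or 0.48 in the cells with the low share. Igf2, a paternally expressed growth factor, was called lower at -2.30 (-2.96 to -1.34 over lanes), as were H19 at -2.09 and Peg3 at -1.32. In the cells with the low share these 3 were at -1.37, -1.13 and -0.96, with no single direction over lanes. For Igf2 47.7% and for H19 41.2% of the sum over all cells lay in 4 cells. H19 was at 0.84 and Peg3 at -0.69 without the keratin-high cells, where Igf2 was too low to be measured.

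Genes for surface ligands and receptors were called in both directions. Robo4, a guidance receptor, was at 2.52 with medians of 4.35 and 0 ppm, the collagen receptor subunit Itga1 at 2.06, the guidance ligand Ntn1 at 1.30 and the Wnt receptor Fzd7 at 1.1. The ephrin system held higher genes, Epha1 at 0.97, Efnb2 at 0.68 and Epha2 at 0.64, and lower ones, Efnb1 at -1.60 and Ephb2 at -1.05. Gja1, the gap junction protein connexin, averaged 290 ± 159 against 138.2 ± 116 ppm (log2 fold 1.06, 0.56 to 1.95 over lanes). In the Notch pathway, the receptor genes Notch1 and Notch3 were lower at -0.86 and -1.15 and the ligand gene Jag1 at -1.05. The receptor genes Egfr and Erbb3 were at -1.01 and -0.67. Without the keratin-high cells Egfr was at -0.05 and Erbb3 at -0.77.

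Genes for lysosomal proteins were among those called lower. The sphingolipid hydrolysis cofactor Psap was at -0.82, the membrane protein Lamp2 at -0.74, the cholesterol exporters Npc1 and Npc2 at -0.60 and -0.59, and the hydrolases Glb1, Hexa, Gaa and Ctsa at -1.01, -0.67, -0.65 and -0.61. Without the keratin-high cells these were -0.59, -0.47, -0.25, -0.52, -0.99, -0.65, -0.64 and -0.51. Epas1, the hypoxia-inducible factor 2 alpha gene, was higher at 1.30 (0.69 to 1.77 over lanes), as was the zinc importer Slc39a14 at 1.32. Genes annotated as lincRNA were called mostly in one direction: 15 of 128 measured were higher and 2 lower, against 215 and 284 of 9995 protein-coding genes. Of 51 antisense genes 1 was higher and 1 lower, and of 64 processed transcripts 5 and 2. Among long noncoding RNAs, Platr15, which averaged 69.7 ± 35.8 against 34.8 ± 26.5 ppm, had a log2 fold of 0.98 (0.86 to 1.11).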
